A study of Mus musculus with 100 samples.

Results

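The comparison described here set the cortex of heterozygous Myt1l mutant embryos (HET, +/−) against that of wild-type embryos (WT, +/+) at the embryonic stage E18.5, shortly before birth. Its members were all libraries labelled E18.5 HET or E18.5 WT, which were 22 of the 100 RNA-seq libraries of the mouse series. They came from 11 of its 53 animals, 6 HET and 5 WT, with 2 libraries from each animal that were summed before any test. Each HET animal carried 1 germline copy of a Myt1l frameshift allele and each WT animal carried none, so every cell of the HET cortex was heterozygous from conception. The labels gave the strain of both groups as C57BL/6J, whereas the study's methods described C57BL6/N zygotes and breeding to C57BL/6N mice. Litters were not labelled, and the p-values below measure the spread between these animals. The WT group held 2 females and 3 males, and the HET group held 3 females and 3 males. The labels also gave a sequencing batch: batch 1 held 2 female WT animals, 1 female HET animal and 2 male HET animals, and batch 3 held 3 male WT animals, 2 female HET animals and 1 male HET animal. Sex was therefore distributed in opposite ways between the genotypes of the 2 batches. Batch was a term of every fit unless stated otherwise.

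MYT1L is a zinc finger transcription factor that appears as progenitors become neurons and stays on in neurons, where it is known as a repressor of genes of other fates. MYT1 and ST18 are its family members. In the foetal cortex, radial glia line the ventricle and divide, intermediate progenitors carry EOMES, and the newborn neurons migrate outwards to form deep and then upper layers. A factor that holds down progenitor genes in neurons is usually followed through these stages, so the gene groups below are ordered along them.

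The allele was made with Cas9 and a guide RNA against the first coding exon. The guide spacer, the site in the reference and the site left after the deletion are shown because every group is defined by them. Capitals mark the 7 deleted bases as the study's wild-type genotyping primer marks them, and the spacer is written as RNA.
Guide spacer: aggagaagcgccaucgcaca
Wild-type site: aggagaagcgccATCGCACacggtccaaag
Frameshift site: aggagaagcgccacggtccaaag
The wild-type site lies on the plus strand of chromosome 12 at chr12:29783637-29783666 (GRCm38, the assembly of the mm10 build), in exon 6 of the reference transcript Myt1l-202. The deleted bases are at chr12:29783649-29783655, starting at coding base 29 in codon 10, and the PAM CGG follows the spacer. Read on in the shifted frame, the reference transcript met its first stop codon as codon 78, in exon 9 (chr12:29811459-29811461), in place of codon 1188 in exon 25. The labels stated that the mutant transcript escaped nonsense-mediated decay and that full-length protein was depleted. The counts below were made per gene, so reads of the wild-type and the frameshift allele were added together.

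Markers of the labelled tissue were present in every animal. Per length, Neurod6, a transcription factor of cortical projection neurons, was at 285 to 422 RPKM, a count per exon length and library size, over the 11 animals and Tbr1 of deep layer neurons at 39.5 to 63.1 RPKM. The muscle genes Ckm and Myl7 did not exceed 0.0188 and 0.136 RPKM. Other muscle genes were higher, among them Tnnc1 at 0.193 to 0.824 RPKM and Acta1, the highest of the list, at 0.94 to 2.57 RPKM. On the same scale Myt1l was at 27.0 to 57.6 RPKM, Myt1 at 3.46 to 6.75 RPKM and St18 at 0.303 to 1.17 RPKM. The reads counted on genes numbered from 31594005 in WT_735 to 56016754 in WT_449. The first principal component of the 1000 most variable genes held 54.6% of their variance, and batch accounted for 87.1% and genotype for 3.68% of that component. The second component held 15.4%, and sex accounted for 79.1% and genotype for 0.262% of it. These libraries are bulk RNA, in which fewer cells of a type and less RNA per cell cannot be told apart.

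Myt1l itself, whose transcript carries the mutation, had a higher RNA level in the HET than in the WT animals of the same batch. In batch 1 its level was 446.6 and 378 CPM, read counts scaled to library size, in the WT animals WT_449 and WT_456, and 593, 599 and 472 CPM in the HET animals HET_457, HET_459 and HET_460. In batch 3 it was 457.3, 512 and 529 CPM in WT_709, WT_732 and WT_735, and 626, 716 and 807 CPM in HET_710, HET_729 and HET_733. The genotypes did not overlap within either batch, although HET_460 lay below 2 WT animals of batch 3. The fitted difference was 0.48 ± 0.09 on the log2 scale (SE, n = 6 and 5), a 1.39-fold level with a 95% interval of the log2 difference from 0.29 to 0.67. Its unadjusted p of 0.000145 in edgeR's quasi-likelihood test was the smallest of all genes tested, and its adjusted p was 1. An exact two-sided permutation test of this gene alone, with genotypes exchanged within batches, gave p = 0.01 over 200 arrangements, of which the smallest possible p was 0.005. Within batches the log2 difference was 0.44 in batch 1 and 0.52 in batch 3. With DESeq2, with no filter on low counts and with the 22 libraries as samples and the animal as a random block, Myt1l passed the threshold, with adjusted p = 0.00427, 0.0196 and 0.000514. The block fit took a single correlation of 0.71 between the libraries of an animal for all genes. Where the libraries of an animal are more alike in a gene, such a fit counts them partly as separate samples.

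The other family members did not differ beyond their spread. Myt1 was at 29.2 to 41.9 CPM in WT and 24.9 to 48.5 CPM in HET, a log2 difference of 0.13 ± 0.15. St18 was at 1.96 to 7.58 CPM in WT and 1.96 to 7.50 CPM in HET, a log2 difference of 0.12 ± 0.28. The ranges of both genes overlapped between genotypes. The log2 difference of Myt1 was −0.04 in batch 1 and 0.28 in batch 3, and that of St18 was −0.06 and 0.305. The nearest genes on chromosome 12 gave a check of the surrounding region. Pxdn, 14.4 kb beyond Myt1l, had a log2 difference of −0.10 ± 0.10, and the other 7 tested neighbours, from Adi1 (chr12:28675231-28682175) to Acp1 (chr12:30893326-30911589), had unadjusted p from 0.142 upwards. The antisense transcript Gm20208, which overlaps the 5′ end of Myt1l, held 390 reads over all 11 animals.

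**Figure D1:**
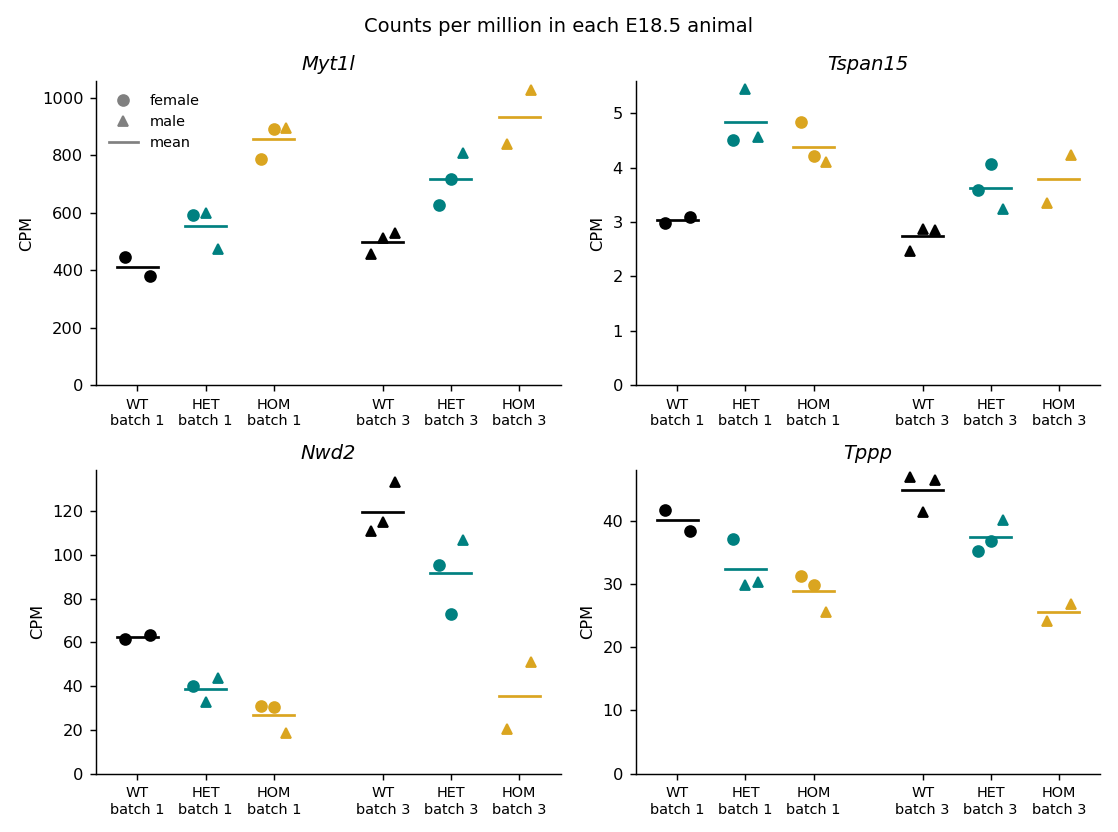
Level in CPM of 4 genes in each E18.5 animal, grouped by genotype and sequencing batch; circles are females, triangles are males, and each line is the mean of its animals. Myt1l and Tspan15 lay higher and Nwd2 and Tppp lower in HET than in WT animals of the same batch, and HOM animals, which carry the allele on both chromosomes, are shown beside them.

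Across all genes, no difference between HET and WT passed the threshold. Of the 55483 genes in the table, 17426 had enough reads to be tested, and 0 (0%) had an adjusted p under 0.05 in edgeR's test. An unadjusted p under 0.05 was given to 532 genes (3.05%), of which 279 were higher and 253 lower in HET. DESeq2 called 3 genes, Myt1l, Nwd2 and 6330403L08Rik, the last named after its values were seen (log2 difference −0.33). The median SE of a log2 difference was 0.10, and among the 13182 genes with a mean of at least 1 on the log2 CPM scale, the 95% interval lay within −1 and 1 for 99.1%. HET lay above WT without overlap inside both batches in 67 genes (0.384%) and below in 66 genes (0.379%).

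The genes with the smallest p in each direction are therefore given as values and not as calls. There were 10 in each direction, taken from genes with a mean of at least 1 on the log2 CPM scale, without predicted, Riken, pseudogene and sex chromosome marker genes. Among those higher in HET besides Myt1l, Tspan15, a tetraspanin of the cell membrane, was at 2.98 and 3.10 CPM in batch 1 WT and at 4.51, 5.44 and 4.56 CPM in batch 1 HET animals. In batch 3 it was at 2.46, 2.88 and 2.86 CPM in WT and 3.58, 4.07 and 3.25 CPM in HET. All 6 HET animals lay above all 5 WT animals, and the log2 difference was 0.53 ± 0.11 (unadjusted p = 0.000481). Eci2, an enoyl-CoA isomerase of fatty acid oxidation, was at 33.9 to 37.3 CPM in WT and 38.4 to 42.8 CPM in HET (log2 difference 0.18 ± 0.05), again with no overlap. The same held for the zinc finger gene Zfp951, at 2.68 to 2.96 CPM in WT and 3.07 to 5.09 CPM in HET (0.47 ± 0.13). These genes were chosen by their p in the same animals, so their lack of overlap is no separate evidence. The share of all genes that separate over all animals was not counted.

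The others described here had values that overlapped over all animals. Fgfr2, a fibroblast growth factor receptor found on radial glia and astrocytes, was at 25.6 to 31.7 CPM in WT and 28.3 to 42.1 CPM in HET (log2 difference 0.35 ± 0.10), and the genotypes separated within each batch. Timp3, an inhibitor of matrix metalloproteinases, was at 25.9 to 47.2 CPM in WT and 33.3 to 50.5 CPM in HET (0.42 ± 0.12), with WT_709 above 4 of the HET animals. Ttc5, a tetratricopeptide protein that acts in the feedback control of tubulin mRNA, had a log2 difference of 0.14 ± 0.04, and H2az2, a histone H2A variant, one of 0.18 ± 0.05. For Mro the log2 difference was 0.50 ± 0.14 at 3.20 to 5.59 CPM in HET.

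Among the genes lower in HET that this rule admits, Nwd2 had the smallest p (unadjusted p = 0.000434). The Riken gene 6330403L08Rik, which it leaves out, had a slightly smaller one. Nwd2 was at 61.4 and 63.6 CPM in WT and 39.9, 32.6 and 43.8 CPM in HET animals of batch 1. In batch 3 it was at 111, 115 and 133 CPM in WT and 95.5, 73.1 and 107 CPM in HET. The level differed more between batches than between genotypes, and within each batch every HET animal lay below every WT animal. The log2 difference was −0.52 ± 0.11, with −0.68 in batch 1 and −0.38 in batch 3. Its adjusted p was 0.0449 in DESeq2, 0.0196 without a filter and 0.00506 with libraries as samples and the animal as a block. The limit of the block fit given for Myt1l holds here too.

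Of the other genes lower in HET, Tppp, which promotes tubulin polymerisation, was at 41.7 and 38.4 CPM in batch 1 WT against 37.1, 29.9 and 30.3 CPM in HET, and at 46.9, 41.4 and 46.5 CPM in batch 3 WT against 35.2, 36.8 and 40.1 CPM in HET. It separated within both batches with a log2 difference of −0.28 ± 0.07. Lrp1b, a low-density lipoprotein receptor-related protein, had a log2 difference of −0.58 ± 0.14, and the protocadherin gene Pcdh20 one of −0.48 ± 0.12. Both overlapped between genotypes in batch 3, where WT_709 held 20.7 CPM of Lrp1b and WT_732 held 10.9 CPM of Pcdh20. Elfn2, a postsynaptic leucine-rich repeat protein, was the only one of these 10 with no overlap over all 11 animals. It was at 86.5 to 101 CPM in WT and 74.8 to 86.4 CPM in HET (−0.23 ± 0.06), so that the nearest animals were almost level. As for Tspan15, the share of all genes without such overlap was not counted. Epha7, an ephrin receptor of axon guidance, had a log2 difference of −0.28 ± 0.07, Plppr5 of −0.24 ± 0.06 and Pkp4, an armadillo protein of cell junctions, of −0.23 ± 0.06. Kcnv1, a modifying subunit of voltage-gated potassium channels, was at 27.9 to 36.0 CPM in WT and 19.7 to 29.1 CPM in HET (−0.32 ± 0.09). Lmo3, a LIM-only transcriptional cofactor, was at 143 to 213 CPM in WT and 104 to 180 CPM in HET (−0.33 ± 0.09).

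**Figure D2:**
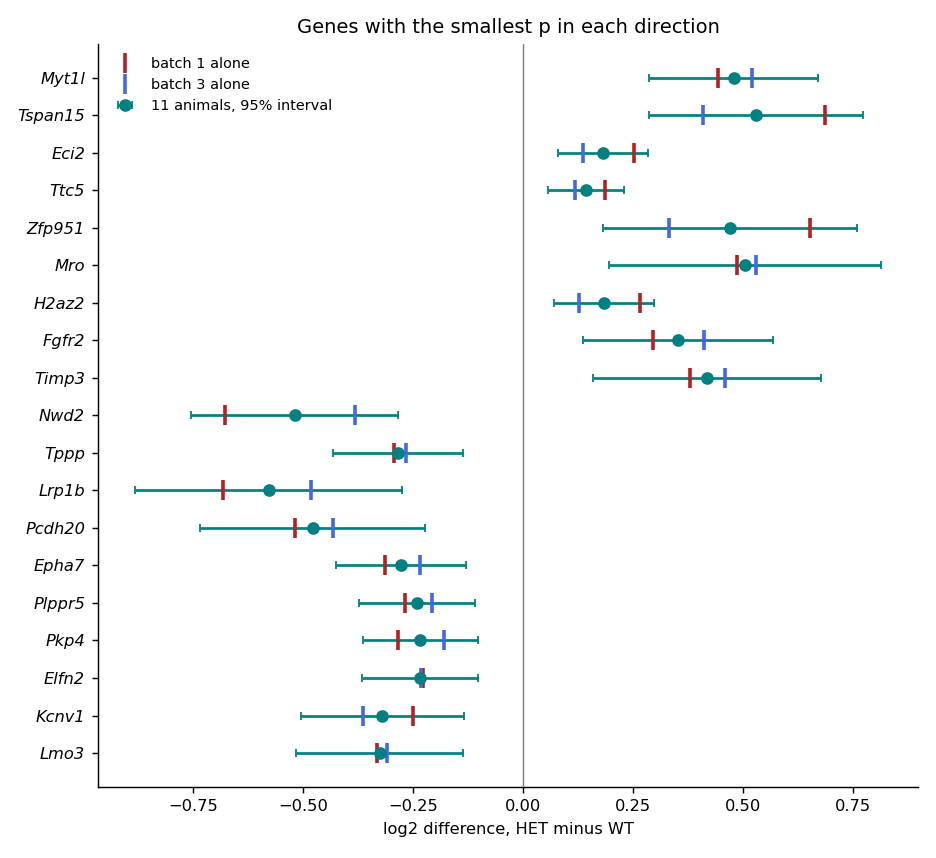
Log2 difference between HET and WT for genes with the smallest unadjusted p in each direction; points with bars are the fit of 11 animals with its 95% interval, and ticks are the differences in batch 1 and batch 3 alone. The ticks of both batches lie on the same side of 0 as the point for each gene, and the genes were chosen by their p.

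Genes that the study followed by name showed no difference beyond the spread between animals, except that Prrx1 had an unadjusted p of 0.0159 (adjusted p = 1). Prrx1, a homeobox gene of mesenchyme and some progenitors, was at 1.58 to 2.73 CPM in WT and 1.60 to 4.80 CPM in HET, a log2 difference of 0.49 ± 0.18. The NOTCH effector Hes1 was at 2.92 to 4.95 CPM in WT and 2.55 to 5.37 CPM in HET (0.03 ± 0.18), and Id3, an inhibitor of basic helix-loop-helix factors, had a log2 difference of −0.02 ± 0.16. Sox2 and Sox9 of neural progenitors had differences of 0.16 ± 0.12 and 0.24 ± 0.17. Eomes of intermediate progenitors spread widely, from 3.25 to 34.1 CPM over the WT animals and from 9.56 to 36.1 CPM over the HET animals, and its log2 difference was −0.01 in batch 1 and 1.20 in batch 3. The 95% interval of its pooled log2 difference ran from −0.34 to 1.57. Cdca7, a gene of dividing cells, was at 10.8 to 18.4 CPM in WT and 11.6 to 20.8 CPM in HET (0.25 ± 0.12). Of the genes of postmitotic neurons, the neuronal tubulin gene Tubb3 had a log2 difference of −0.09 ± 0.08, the deep layer gene Fezf2 one of −0.04 ± 0.16 and Reln of Cajal-Retzius cells one of −0.11 ± 0.11. Sema3c, a secreted guidance cue, had one of −0.08 ± 0.19. For Tubb3 and Reln the 95% intervals of the log2 difference kept within −0.35 and 0.13.

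Gene lists were then described by the median log2 difference of their tested members, beside the median of −0.004 over all 17426 genes, of which 48.2% had a value above 0. No member of any of the 39 lists passed the threshold, and in none of the lists did the mean log2 CPM of its members separate the genotypes within both batches. Among progenitor genes most values were above 0. The median of the 30 radial glia genes was 0.20, with 24 above 0 and 2 with an unadjusted p under 0.05, which were Fam107a (1.04 ± 0.43) and Prom1 (0.23 ± 0.10). Of the 40 cell cycle genes, 39 lay above 0 with a median of 0.15, and none had an unadjusted p under 0.05. Cdc6, which licenses replication origins, was at 1.66 to 3.07 CPM in WT and 2.01 to 3.31 CPM in HET (0.31 ± 0.15), and the centromeric histone gene Cenpa had a log2 difference of 0.30 ± 0.15. The 22 tested genes of intermediate progenitors and new neurons had a median of 0.07 with 13 above 0, among them Gadd45g (0.31 ± 0.14). Their median was −0.03 in batch 1, with 6 above 0, and 0.13 in batch 3, with 17 above 0. In batches 1 and 3 the radial glia medians were 0.13 and 0.22 and the cell cycle medians 0.08 and 0.22.

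The HET animals differed among themselves in these scores. Relative to the mean of the WT animals of its batch, the cell cycle score was 0.31 in HET_459, 0.27 in HET_710 and 0.33 in HET_729, but −0.04 in HET_457, −0.07 in HET_460 and −0.02 in HET_733. The WT animals themselves spread from −0.21 in WT_456 to 0.21 in WT_449. The same 3 HET animals were the highest in the radial glia score, at 0.37, 0.42 and 0.52, while HET_733 was at −0.18 and HET_460 at −0.13. HET_457 was at 0.04 in that score. Without HET_459 the medians were 0.12 for radial glia genes, 0.09 for cell cycle genes with 36 of 40 above 0, and 0.03 for genes of intermediate progenitors and new neurons with 11 of 20 above 0. In batch 3 the high HET animals were the 2 females, and the male HET animal lay among the WT animals, which were all male. In batch 1, where the WT animals were all female, the high HET animal was the male HET_459. The female HET_457 and the male HET_460 were lower there in both scores. In a fit with sex added to batch, the median of radial glia genes was 0.17 and the median of cell cycle genes 0.14.

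The early-foetal and mid-foetal gene lists of the study, which it tested on samples that include these, are no independent evidence of a direction. Of the 448 early-foetal genes tested, 363 (81.0%) lay above 0 with a median of 0.11, and without HET_459 302 lay above 0 with a median of 0.06. Of the mid-foetal genes tested, 124 (27.9%) lay above and 321 below 0 with a median of −0.06. At an unadjusted p under 0.05 there were 9 early-foetal genes higher and 1 lower, and 3 mid-foetal genes higher and 27 lower. Over all genes tested these counts were 279 higher and 253 lower. The early-foetal genes higher in HET included Tspan15 and Ttr. The value of Ttr rests mainly on HET_459, with a log2 difference of 10.3 with and 1.88 without this animal. The mid-foetal genes lower in HET included Tppp and Kcnv1, given above, and Sstr1, a somatostatin receptor gene at a median of 21.5 CPM in WT and 16.1 CPM in HET (−0.39 ± 0.11). Pdgfc, a platelet-derived growth factor of the early-foetal list, lay the other way from its list (−0.37 ± 0.12). The early-foetal score was again highest in HET_459, HET_729 and HET_710, at 0.39, 0.28 and 0.23 from the WT mean of the batch, and lowest in HET_460, at −0.11.

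NOTCH and WNT signalling genes stayed close to the background. The 30 NOTCH genes had a median of 0.03 with 17 above 0. The ligand gene Jag2 had a log2 difference of −0.11 ± 0.06, the receptor gene Notch2 one of 0.47 ± 0.29 and the ubiquitin ligase gene Dtx1, at 168 to 209 CPM in WT and 142 to 203 CPM in HET, one of −0.13 ± 0.05. Without HET_459 the NOTCH median was 0.01. The 46 WNT genes had a median of 0.03 with 30 above 0, and without HET_459 a median of 0.003 with 24 above 0. The receptor gene Fzd5, at 0.617 to 1.26 CPM in WT and 0.849 to 3.56 CPM in HET, had the largest difference of the list (1.10 ± 0.40), and Fzd2 one of 0.26 ± 0.13. Nkd2, an inhibitor of the pathway, had a log2 difference of −0.17 ± 0.06.

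Most synaptic and channel genes had values slightly below 0. Of 34 presynaptic genes, 6 lay above 0, with a median of −0.08, and 4 had an unadjusted p under 0.05, all lower in HET. Syt1, the synaptotagmin that senses calcium at synaptic vesicles, was found at 310 to 330 CPM in WT and 250 to 316 CPM in HET, separated within both batches, and had a log2 difference of −0.22 ± 0.06 (unadjusted p = 0.00335). Syt7, another synaptotagmin, had a log2 difference of −0.15 ± 0.06. Of 35 glutamatergic postsynaptic genes, 6 lay above 0 with a median of −0.07. Their median was −0.14 in batch 1, with 3 above 0, and −0.01 in batch 3, with 15 above 0. For presynaptic genes it was −0.07 in both batches. The metabotropic receptor gene Grm5 had a log2 difference of −0.24 ± 0.08 and the NMDA receptor gene Grin1 one of −0.17 ± 0.08, while the scaffold gene Dlg1 had one of 0.21 ± 0.10.

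Of 44 potassium channel genes, 12 lay above 0, with a median of −0.11 and 5 lower at an unadjusted p under 0.05, among them Kcnv1, Kcnh3 (−0.27 ± 0.10) and Kcnj4 (−0.41 ± 0.16). The 15 calcium channel genes had a median of −0.07 with 3 above 0. Their median was −0.22 in batch 1, with 3 above 0, and 0.05 in batch 3, with 10 above 0. The T-type channel gene Cacna1i was at 35.8 to 55.8 CPM in WT and 30.8 to 50.9 CPM in HET and separated within both batches (−0.19 ± 0.06), and Cacna1g had a log2 difference of −0.56 in batch 1 and −0.07 in batch 3. The 11 sodium channel genes had a median of −0.08 with 3 above 0, and of −0.19 in batch 1 and 0.01 in batch 3. The potassium channel median was −0.09 in batch 1 and −0.05 in batch 3. In single animals HET_460 had the lowest score of all in the potassium, calcium and sodium channel and postsynaptic lists, at −0.34, −0.39, −0.44 and −0.33 from the WT mean of its batch. The other HET animals lay between −0.15 and 0.03 for potassium channels, and the WT animals between −0.04 and 0.06.

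For markers of neuronal layers and of axon guidance the medians over both batches were slightly below 0. The upper layer median was −0.105 in batch 1 and 0.03 in batch 3, with 4 and 12 of 20 genes above 0. The axon guidance median was −0.14 and 0.04, with 9 and 22 of 36 above 0. The deep layer median was −0.07 and −0.04. The 20 upper layer genes had a median of −0.03 and the 19 deep layer genes one of −0.02, with 3 members of each at an unadjusted p under 0.05, all lower in HET. Rorb, a nuclear receptor of upper layers, was at 40.0 to 61.3 CPM in WT and 29.1 to 55.5 CPM in HET (−0.29 ± 0.12), Mef2c had a log2 difference of −0.22 ± 0.10 and the adhesion gene Nectin3 one of −0.18 ± 0.07. Among deep layer genes these were Lmo3, Nr4a2 (−0.48 ± 0.20) and the contactin gene Cntn6 (−0.24 ± 0.11). The 27 genes of GABAergic interneurons had a median of 0.01. Without HET_459 the upper and deep layer medians were −0.05 and −0.04. Of 36 axon guidance genes, 14 lay above 0 with a median of −0.04, and 4 had an unadjusted p under 0.05, all lower in HET. The netrin receptor gene Unc5c, at 55.2 to 83.8 CPM in WT and 26.6 to 59.8 CPM in HET, had a log2 difference of −0.49 ± 0.14. It separated within both batches, although in batch 3 the nearest values were 59.8 CPM in HET_733 and 59.9 CPM in WT_732. Its relative Unc5a had one of −0.17 ± 0.06.

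**Figure D3:**
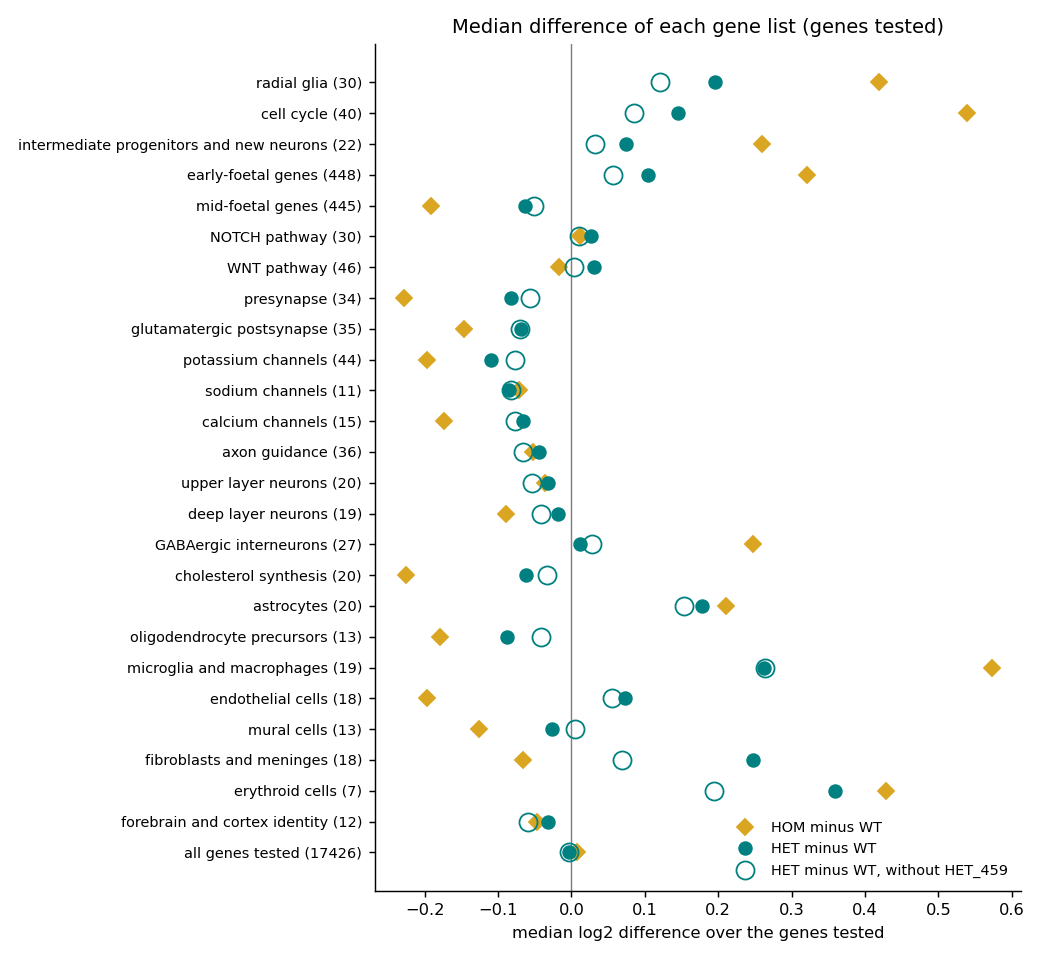
Median log2 difference of the tested members of 25 gene lists and of all genes, for HET against WT (filled circles), the same without HET_459 (open circles) and HOM against WT (diamonds). HET medians lie between −0.11 and 0.36, and HET and HOM are set against the same WT animals.

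The animal with high choroid plexus genes was HET_459. Ttr, the transthyretin gene that choroid plexus epithelium transcribes at a very high level, was at 2380 CPM in HET_459, at 3.00 CPM in HET_460, at 1.07 CPM in WT_456 and at 0 to 0.531 CPM in the other 8 animals. Its fitted log2 difference of 10.3 ± 3.1 had an unadjusted p of 0.00643, and without HET_459 it was 1.88. Of the 15 choroid plexus genes, 14 were highest in HET_459, and their summed level was 2590 CPM there against 11.5 to 16.4 CPM in WT and at most 18.3 CPM in the other HET animals. The chloride channel gene Clic6 was at 36.6 CPM in HET_459 and at most 1.17 CPM elsewhere, the water channel gene Aqp1 at 30.5 against at most 1.43 CPM, and the folate receptor gene Folr1 at 22.7 against at most 0.107 CPM. Folr1 and 8 more of the 15 genes were too low in the other animals to be tested, and Prlr was at 0.343 CPM in HET_459 against up to 1.06 CPM elsewhere. Ependymal genes were also highest there. Their summed level was 59.3 CPM in HET_459, 9.28 to 11.3 CPM in WT and at most 19.9 CPM in the other HET animals, with Foxj1, the regulator of motile cilia, at 21.8 CPM in HET_459 and 2.89 to 4.04 CPM in WT.

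**Figure D4:**
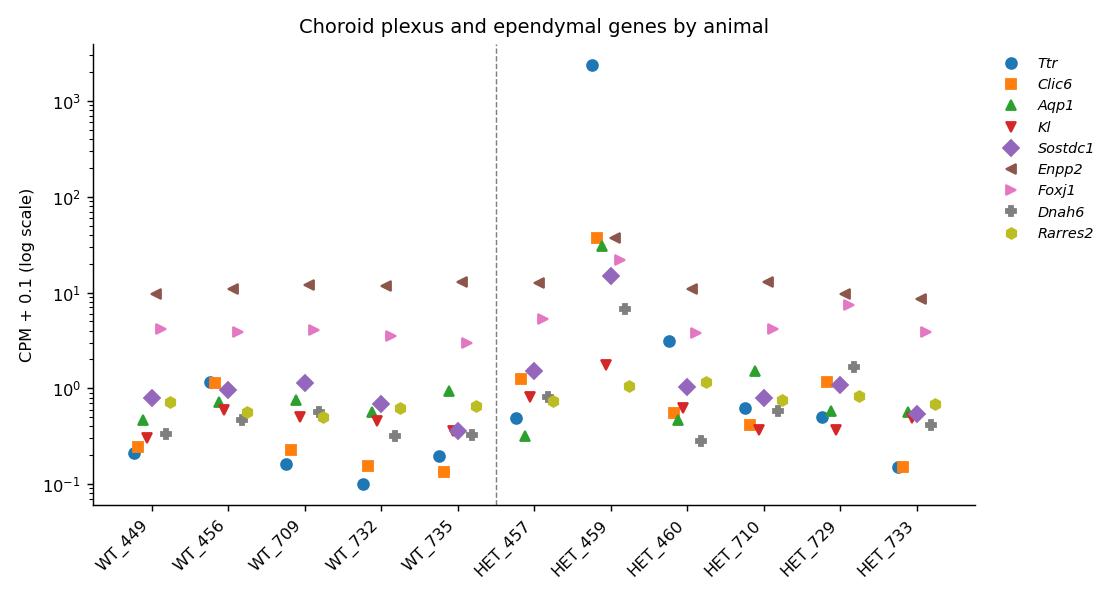
Level of 6 choroid plexus and 3 ependymal genes in each animal, in CPM plus 0.1 on a log scale, with WT animals left and HET animals right of the dashed line. HET_459 stands apart for Ttr at 2380 CPM and for most of the other genes shown.

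The comparison was repeated without HET_459. Of 17191 genes then tested, 0 (0%) had an adjusted p under 0.05 in edgeR's test and 350 an unadjusted p under 0.05. The log2 difference of Myt1l was 0.46, of Nwd2 −0.46, of Tspan15 0.48 and of Fgfr2 0.31. The median of the 6 tested choroid plexus genes went from 1.91 to 0.34, that of the 6 ependymal genes from 0.79 to 0.27 and that of the 18 tested genes of fibroblasts and meninges from 0.25 to 0.07. Ogn of meningeal fibroblasts was at 8.74 CPM in HET_459 and at most 0.357 CPM in WT. The part of this animal's choroid plexus RNA in the other lists was not tested.

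Other cell types were followed for the same reason. All 19 tested microglia and macrophage genes lay above 0, with a median of 0.26 with and without HET_459, and 3 had an unadjusted p under 0.05. Among them the mannose receptor gene Mrc1 had a log2 difference of 0.64 ± 0.26 and the Fc receptor gene Fcer1g one of 0.49 ± 0.20. The summed level of the list was 53.7 to 108 CPM in WT and 54.7 to 128 CPM in HET, and HET_733 had a score of −0.25 where the other 5 HET animals lay between 0.30 and 0.50. Of 20 tested astrocyte genes, 17 lay above 0 with a median of 0.18. Apoe was at 17.5 to 61.5 CPM in WT and 16.6 to 89.5 CPM in HET (0.71 ± 0.30), and Gfap had a log2 difference of 0.16 in batch 1 and 1.28 in batch 3. In the astrocyte score HET_710 and HET_729 were high, at 0.54 and 0.48, and HET_733 was low, at −0.45, and the groups overlapped.

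Oligodendrocyte precursor genes had a median of −0.09 with 4 of 13 above 0, and of −0.04 without HET_459. Endothelial genes had a median of 0.07 with 16 of 18 above 0, and of 0.06 with 11 of 18 above 0 without HET_459. Mural genes had a median of −0.03 with 5 of 13 above 0. Globin and other erythroid genes had a median of 0.36, or 0.19 without HET_459, with Hbb-bs at 87.2 to 170 CPM in WT and 109 to 240 CPM in HET, and the band 3 gene Slc4a1 at 0.219 to 0.904 and 0.490 to 1.18 CPM. HET_459 was the highest animal in the erythroid score. Markers of neighbouring brain regions spread widely within each genotype. In batch 1 the striatal and basal forebrain score was −0.81 in WT_449 and 0.81 in WT_456. It was 1.11 in HET_457, 0.92 in HET_459 and 0.52 in HET_460. In batch 3 the score ranged over both genotypes from 0.56 in WT_732 to −1.35 in HET_733. Isl1 of striatal projection neurons was at 34.6 CPM in WT_456, at most 1.91 CPM in the other WT animals and at 0.0258 to 40.6 CPM in HET. The median of this list was 0.56 in batch 1 and −0.28 in batch 3. The part of these regional differences in the neuronal values above was not tested.

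**Figure D5:**
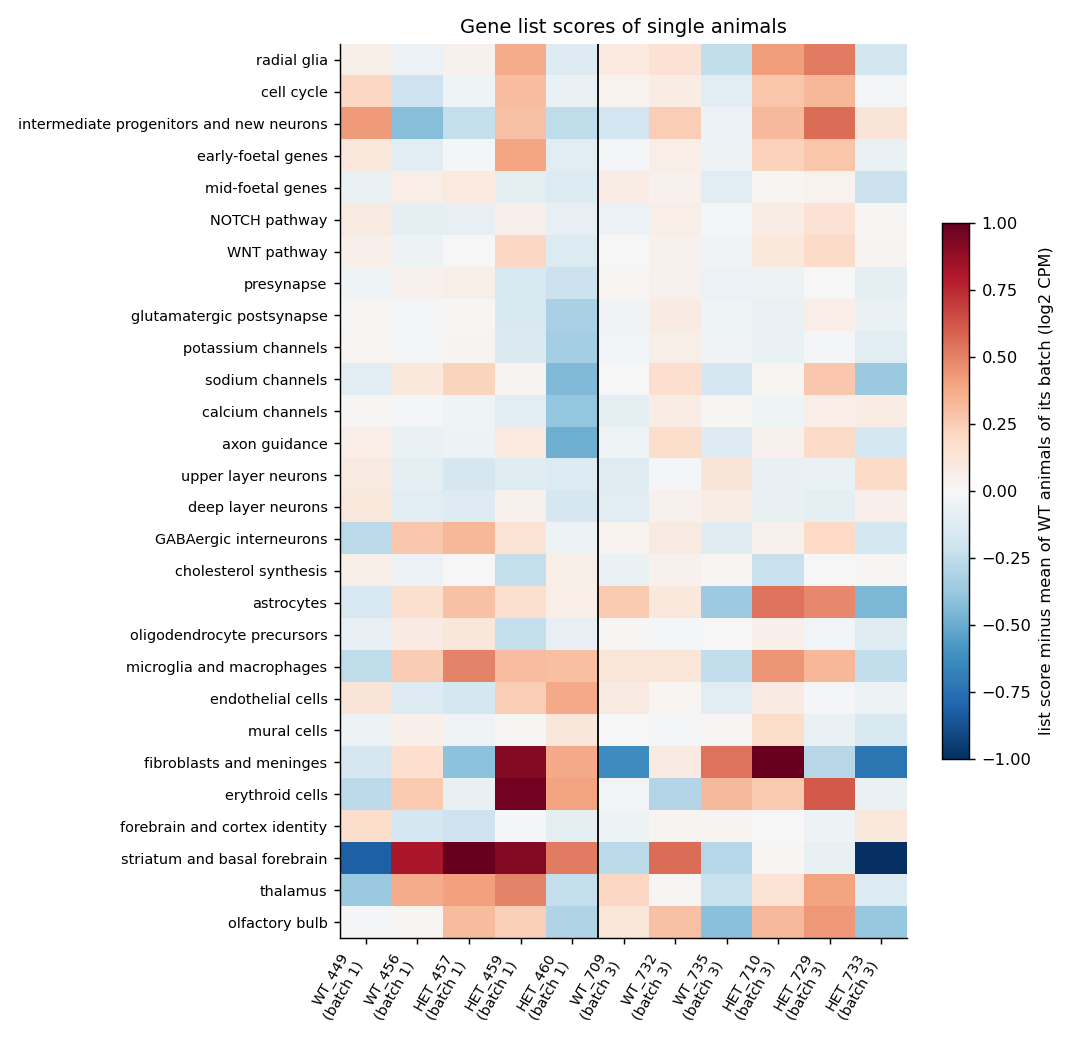
List score (mean log2 CPM of the tested members) of each animal minus the mean of the WT animals of its batch, for 28 gene lists; colours end at −1 and 1, and the line divides batch 1 from batch 3. HET_459, HET_710 and HET_729 are high in progenitor lists and HET_733 is low in glial lists.

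Some lists outside the neural lineage were also recorded. All 20 genes of cholesterol synthesis lay below 0, with a median of −0.06 and none with an unadjusted p under 0.05. Dhcr7, the enzyme of the last step to cholesterol, was at 70.2 to 87.7 CPM in WT and 62.2 to 84.2 CPM in HET (−0.10 ± 0.06), and without HET_459 there were 4 of the 20 above 0 and the median was −0.03. The 29 tested matrix genes had a median of 0.01, and of −0.05 without HET_459. Mmp14, a membrane-bound metalloproteinase, was at 22.4 to 33.9 CPM in WT and 28.9 to 40.3 CPM in HET (0.30 ± 0.10) and Mmp15 had a log2 difference of −0.11 ± 0.04. Stress and hypoxia genes had a median of −0.02 and immediate early genes one of 0.02. The 12 tested mitochondrially encoded genes had a median of −0.07. The median was −0.02 for hippocampus and cortical hem genes, 0.16 for thalamus genes (0.10 without HET_459), 0.06 for olfactory bulb genes (0.03 without HET_459) and −0.06 for muscle genes, with no direction shared between batches for muscle. Of the genes that differ between C57BL/6 substrains, Nnt was expressed in every animal, at 16.2 to 29.2 CPM in WT and 16.5 to 23.9 CPM in HET under an identifier that shares its reads with a second Nnt entry. Wdfy1 was at 59.3 to 87.5 CPM in WT and 58.5 to 87.2 CPM in HET, and Entpd4 was too low to be tested.

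The batches were compared directly. In a fit with a genotype by batch term, 0 genes (0%) had an adjusted p under 0.05 in edgeR's test and 281 an unadjusted p under 0.05. DESeq2 called 5, which were Kdm5d, Eif2s3y, Uty, Ddx3y and Gm27927, the first 4 of them genes of the Y chromosome, named after their values were seen. Sex was distributed in opposite ways between the genotypes of the 2 batches, as given above. Across the 17426 genes, the difference in batch 1 and that in batch 3, which share no animals, had a Spearman correlation of 0.0422 and a Pearson correlation of 0.0235. The same sign in both was found for 48.7% of all genes and in 135 (64.9%) of the 208 genes with an unadjusted p under 0.05 in batch 1. Genes are not independent replicates, and these values are descriptions.

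Animals with the allele on both chromosomes (HOM, −/−) were set beside the HET animals in a fit of all 3 genotypes with batch. The comparisons share the 5 WT animals, so the values are given side by side only. HOM against WT called 730 of 17948 genes (4.07%), 360 higher and 370 lower. Myt1l was at 788 to 1030 CPM in the 5 HOM animals, and its log2 difference was 0.99 ± 0.10 (adjusted p = 0.000333) beside 0.48 in HET. Nwd2, at 18.8 to 50.9 CPM in HOM, had −1.43 ± 0.23 (adjusted p = 0.00541) beside −0.52, and Tppp −0.63 ± 0.09 (adjusted p = 0.00388) beside −0.28. Fgfr2 had 0.65 ± 0.12 (adjusted p = 0.0113) beside 0.35, and Mro 1.02 ± 0.13 (adjusted p = 0.00198) beside 0.50. Tspan15 had 0.48 ± 0.12 (adjusted p = 0.0353) beside 0.53 in HET.

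Some members lay further apart. Mmp14 was at 46.6 to 72.5 CPM in HOM and at 28.9 to 40.3 CPM in HET, with log2 differences of 1.17 ± 0.14 (adjusted p = 0.00198) and 0.30. Cdca7 was at 23.1 to 29.9 CPM in HOM and 11.6 to 20.8 CPM in HET, with 0.95 ± 0.13 (adjusted p = 0.00198) and 0.25. Both were higher in every HOM than in every HET animal, and the share of all genes for which this holds was not counted. Sstr1 had −1.08 ± 0.20 (adjusted p = 0.0111) and −0.39. Timp3 did not pass in HOM, with 0.27 ± 0.13 (adjusted p = 0.288) beside 0.42. For the lists, the HOM and HET medians were 0.54 and 0.15 for cell cycle genes (12 of 40 called in HOM, all higher), 0.42 and 0.20 for radial glia genes (5 of 30, all higher), and −0.23 and −0.08 for presynaptic genes (1 of 34 higher and 6 lower). They were 0.57 and 0.26 for microglia and macrophage genes, of which 0 of 19 were called in HOM. The early-foetal medians were 0.32 and 0.11, with 56 of 452 called higher and 2 lower in HOM, and the mid-foetal medians −0.19 and −0.06, with 5 of 452 called higher and 29 lower. For cholesterol synthesis they were −0.23 and −0.06, with 6 of 20 called lower in HOM. Other lists had HOM and HET medians of opposite sign, among them endothelial genes at −0.20 and 0.07, with 2 and 16 of 18 above 0. The medians were −0.07 and 0.25 for fibroblasts and meninges, −0.02 and 0.03 for WNT genes and −0.16 and 0.02 for immediate early genes. The difference between the HET and the HOM effect was not tested.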

How the data were processed

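RNA was taken from dissected cortex in TRIzol, and libraries followed the dUTP protocol. The authors mapped reads to mm10 with STAR and deposited unnormalised read counts for each gene, 1 column a library, which were used here. The counting tool and its strand setting are not given in the sources used here. Normalised counts and the authors' own comparisons (fold changes, p-values) were deposited too and not used here. Counts of the 2 libraries of an animal were summed, since the chi-square over its degrees of freedom was 1.20 to 1.33 within an animal and 5.31 to 77.2 between animals of a genotype. Genes were filtered with filterByExpr, scaled by TMM (factors 0.971 to 1.03) and tested with edgeR 4.0.16 (quasi-likelihood, R 4.3.3) with batch as covariate and Benjamini-Hochberg adjustment at 0.05. CPM used TMM library sizes, with a prior count of 2 on the log2 scale. DESeq2 1.42.0 and limma 3.58.1 served for alternatives. The study's methods used genetic sex as covariate, and sex is among the alternatives. The genes named are Myt1l and its family, genes followed by the study, the 10 genes with the smallest p in each direction where none were called, up to 3 members of a list by p, the choroid plexus list, the neighbours of Myt1l and 3 substrain genes. Some genes that this rule selects are not reported here. Tissue markers given per length come from the lists of cortex identity and muscle. The members and gene lists were chosen with earlier results of these data known. Scripts were tested on simulated data.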

Additional observations from a re-analysis of the deposited data

Results flagged for a closer look

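In 31 of 346 sets of 5 WT or 6 HET animals, 1 animal stood apart from the others by Dixon's criterion. For a single set chance gives about 1 in 20. These sets share animals and related genes and were not adjusted for batch, so their count is a description. Of the 31, HET_733 accounted for 8, HET_459 for 6, WT_449 for 5 and WT_735 for 4. No explanation was weighed, and all values of single genes are in CPM and all list scores are mean log2 CPM.

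HET_459 was highest in Ttr (2380, next 3.00), Enpp2 (36.8, next 12.8), Aqp1 (30.5, next 1.43), Sostdc1 (14.8, next 1.41) and the tight junction gene Ocln (7.29, next 3.88). Its choroid plexus score was 5.20, and the next was 0.33. HET_459 was already known for its choroid plexus genes, so their flags are no separate evidence. HET_733 was lowest in Gfap (1.47, next 3.71), Sstr2 (17.7, next 23.3) and Hspb1 (0.515, next 0.777), and highest in Mef2c (808, next 627). It was also lowest in the astrocyte (3.74), immediate early gene (1.57) and muscle (−0.64) scores and highest in the upper layer score (7.34).

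HET_460 was lowest in Ttn (0.138) and highest in Junb (6.26), and HET_457 had the lowest endothelial score (3.21). WT_449 was highest in Sema3c (73.3), Nnt (29.2) and the cortex identity score (7.79), and lowest in the mural (2.36) and oligodendrocyte precursor (4.81) scores. WT_456 was highest in Isl1 (34.6) and Nkx2-1 (10.6), genes of the ventral forebrain, and lowest in Fezf2 (37.4). WT_709 was highest in Timp3 (47.2) and lowest in Ogn (0.187). WT_735 was highest in Unc5c (83.8) and Ddit3 (12.3), and lowest in Nr4a2 (37.0) and Egr2 (0.162).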

How the results depend on the processing

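The count of genes called between HET and WT was 0 with sex added to batch, sex in place of batch, no covariate, all 3 genotypes in 1 fit, either batch alone, RLE factors, library totals and each animal left out (0 to 0). DESeq2 called 3 (1 higher, 2 lower), and the fit without a filter 2 of 33793 (1 higher, 1 lower). The library numbers share only a number, since the correlation of library differences between animals had a median of −0.00133 and stayed under 0.1 in all 55 pairs. The replicate block, with libraries as samples and animals as random block, called 2 (1 higher, 1 lower). It took a single correlation of 0.71 between libraries of an animal for all genes, with the limit given for Myt1l. The cause of these differences was not tested. Myt1l passed the threshold in those 3 fits, with log2 differences of 0.478, 0.488 and 0.475. It ranged from 0.427 to 0.530 with an animal left out, and its permutation p from 0.01 to 0.02. The difference between batches called 11 genes without a filter and 5 with DESeq2, against 0. Among genes with an unadjusted p under 0.05, 279 were higher and 253 lower, 208 and 464 with the block, 375 and 153 with library totals, 138 and 53 with sex in place of batch, 154 and 64 with no covariate, and 882 of 1193 higher without a filter. With an animal left out their number ran from 329 without HET_729 to 929 without HET_460.

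Of 2923 values of 131 other named genes under 22 alternatives, 69 in 23 genes changed sign, and 3, all of Nwd2, passed the threshold. Of 858 list medians, 79 changed sign. The choroid plexus median was 4.09 in batch 1, 0.00901 in batch 3 and 4.16 without a filter, the ependymal median 2.06 in batch 1 and the muscle median 0.217 in batch 1. The number of animals limits the precision, and the median 95% interval reached 0.22 to either side on the log2 scale.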
